A study of Mus musculus with 6 samples.

Results

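The genes described here are 10 genes known to mark conventional dendritic cells (cDCs), picked from the deposited table by symbol out of its 57180 mouse genes. They fall into 5 genes of the cDC1 subset (Xcr1, Clec9a, Batf3, Itgae and Ly75), 2 genes of the cDC2 subset (Cd209a and Esam), 2 genes shared by both subsets (Zbtb46 and Flt3) and 1 gene of mature dendritic cells (Fscn1). RNA was measured in NK cells sorted by surface CD36 from fibrotic livers of male C57BL/6J mice, aged 6 to 8 weeks when used, with 3 CD36+ NK and 3 CD36- NK libraries. Both groups had received CCl4, injected 2 times a week over 4 weeks at 2.5 ml/kg as a 20% solution in olive oil, and livers were taken 48 h after the last dose. By the stated design the groups differ in the CD36 sort alone, while marker lists of several other cells differ between them as well, as given below. NK cells were gated as CD3- NK1.1+ in the study. The number of mice behind each library is not given in the sources used here, so that p-values measure the spread between these libraries.

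Conventional dendritic cells take up antigen and present it to T cells. The cDC1 subset is known for cross-presenting antigen of dead cells to CD8+ T cells, and the cDC2 subset for priming CD4+ T cells. Both develop from bone marrow precursors under the cytokine FLT3L, both are found in the liver, and both change their gene expression when they mature and migrate to lymph nodes. None of the 10 genes is a defining gene of NK cells, and several are also known in other cells, which is said at each gene.

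Of the 10 genes, 4 were higher in CD36+ NK by the study's thresholds, Xcr1, Clec9a, Itgae and Fscn1, with folds of 5.49, 4.08, 2.85 and 2.87. Over all 14761 tested genes 5.96% were called in either direction. None was lower by the same thresholds. The genes shared by both cDC subsets, Flt3 and Zbtb46, had folds of 1.48 and 1.20 and did not pass, and neither did Batf3, Ly75, Cd209a or Esam. The thresholds were an adjusted p below 0.05 from edgeR's quasi-likelihood test over 14761 genes and a fold change above 2, which called 2.98% of these genes higher and 2.98% lower in CD36+ NK. By unadjusted p below 0.05, 6 of the 10 genes were higher, against 14.2% of all tested genes, and 1, Ly75, was lower, against 12.1%. The 6 include Esam, which passed the filter on low counts through CD36+ NK alone. DESeq2 and edgeR's exact test also called 0 of the 10 genes lower. The count of 4 became 2 when replicate 2 or 3 of CD36+ NK, or replicate 1 or 3 of CD36- NK, was left out, with Xcr1 and Fscn1 called each time.

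The libraries held between 10292480 and 13787189 counts. Cd36, the sorted marker, had a CPM (TMM-normalised count for the depth of the library) of 110 to 263 in CD36+ NK against 14.3 to 31.7 in CD36- NK, a fold of 9.67. Klrb1c, which encodes NK1.1, reached 77.9 to 106 CPM in the CD36+ NK libraries against 448 to 524 CPM in the others. Marker lists of other cells were present in both groups, and summed CPM is given here for each list. The 10 NK cell genes summed to 846 to 1026 in CD36+ NK against 4542 to 5774 in CD36- NK, and the 8 B cell genes to 11510 to 13200 against 6907 to 9110. A list of 8 genes of liver-resident NK cells, also termed liver ILC1, overlapped between the groups, at 167.1 to 213.5 against 171.5 to 221.8. The 12 macrophage and Kupffer cell genes summed to 2363 to 5931 against 377 to 1438. All 10 tested genes of this list were above in every CD36+ NK library, against 17.0% of all tested genes. The 10 cDC genes themselves summed to 135 to 169 CPM in CD36+ NK against 111 to 147 in CD36- NK, and the groups overlapped. The part of these cells in the values below was not tested, and in sorted bulk samples more cells of a type and more RNA per cell cannot be told apart.

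**Figure D1:**
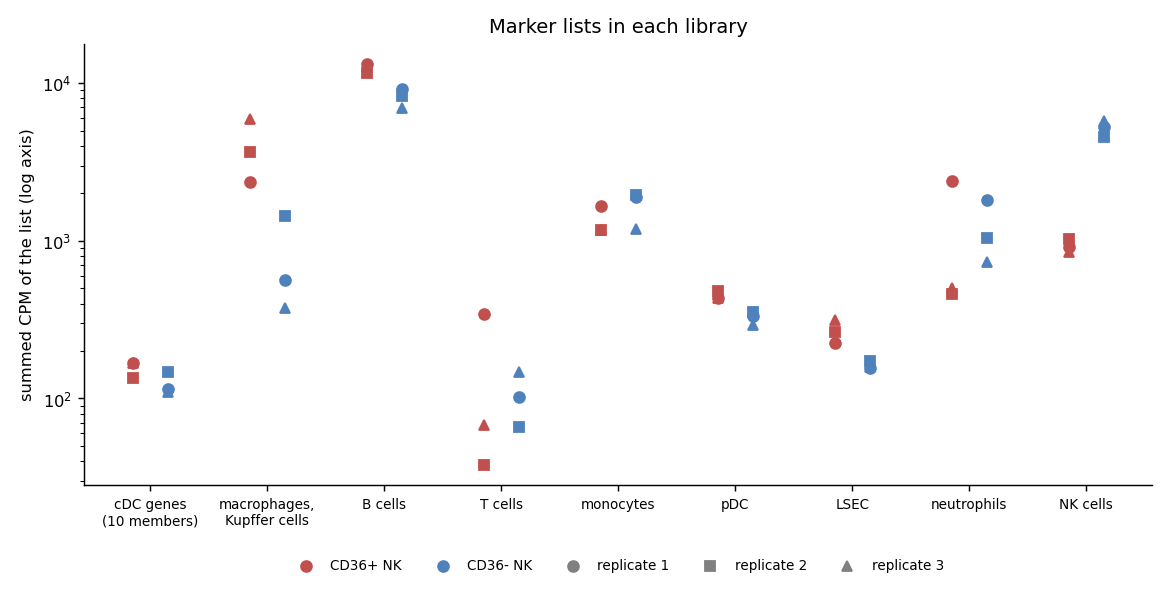
Summed CPM (log axis) of the 10 cDC genes and of 8 marker lists of other cells, 1 point per library, red for CD36+ NK and blue for CD36- NK, with the marker shape giving the replicate (pDC, plasmacytoid dendritic cells; LSEC, liver sinusoidal endothelial cells). The cDC genes overlap between the groups, the macrophage and B cell lists lie higher in every CD36+ NK library and the NK cell list lies lower.

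To show the starts of the genes that carry these results, the 200 bases from 220 to 21 bases before the RefSeq transcription start are printed for the 2 cDC1 receptor genes that rose most, for the mature gene and for Zbtb46 (RefSeq, GRCm38.p6, transcribed strand, 5′ to 3′). Capitals mark matches to a short set of motifs: TGANTCA (AP-1), GAAA directly before TGANTCA (the composite element of AP-1 and IRF factors, of the kind that BATF3 and IRF8 are known to bind), GAAA and GAAA with any 2 bases between (the interferon-stimulated response element), GGAA and GAAA with any 2 bases between (the composite element of ETS and IRF factors) and TATAAA (the TATA box), searched on both strands. The windows lie at chr9:123862050-123862249 (minus strand) for Xcr1, chr6:129408642-129408841 (plus strand) for Clec9a, chr5:142960135-142960334 (plus strand) for Fscn1 and chr2:181424409-181424608 (minus strand) for Zbtb46.
Xcr1: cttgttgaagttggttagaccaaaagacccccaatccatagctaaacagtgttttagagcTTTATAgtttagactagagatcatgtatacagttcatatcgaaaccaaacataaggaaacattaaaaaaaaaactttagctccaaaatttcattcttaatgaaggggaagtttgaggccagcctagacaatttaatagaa
Clec9a: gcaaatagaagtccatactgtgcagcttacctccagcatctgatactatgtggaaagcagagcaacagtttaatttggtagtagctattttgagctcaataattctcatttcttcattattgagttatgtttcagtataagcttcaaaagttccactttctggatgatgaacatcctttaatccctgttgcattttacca
Fscn1: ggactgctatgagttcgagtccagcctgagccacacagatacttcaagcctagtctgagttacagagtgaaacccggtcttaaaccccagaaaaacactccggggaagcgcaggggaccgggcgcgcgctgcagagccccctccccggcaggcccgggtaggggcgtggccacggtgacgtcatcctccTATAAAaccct
Zbtb46: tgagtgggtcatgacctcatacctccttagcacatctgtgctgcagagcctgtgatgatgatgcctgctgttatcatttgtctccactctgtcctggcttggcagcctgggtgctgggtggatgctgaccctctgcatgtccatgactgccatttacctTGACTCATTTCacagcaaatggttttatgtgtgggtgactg

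Promoters of 300 bases, from 250 bases before the start to 50 after it, were at hand for 8 of the 10 genes, all but Itgae and Esam. Zbtb46 alone of the 8 held an AP-1 match, 61 bases before the start, and the same place also matched the 11-letter AP-1 and IRF composite, which contains the AP-1 letters. None of the 8 held the interferon-stimulated element, which 3.44% of all promoters did. Over all 32851 promoters, 7.81% held the AP-1 letters and 0.125% the composite. Cd209a held an ETS and IRF composite 9 bases before its start, as 2.72% of all promoters did. Fscn1 had a TATA box 31 bases before its start, while the matches of Xcr1, Clec9a and Cd209a lay 160, 226 and 184 bases before theirs, and 13.6% of all promoters held these letters somewhere. A match of letters does not show that a factor binds there.

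Among the cDC1 genes, the receptors Xcr1 and Clec9a had the highest folds of the 10 genes. Xcr1 (ENSMUSG00000060509, chromosome 9, from 123681380 to 123691094 in the deposited table, which names no build) encodes the receptor for the chemokine XCL1, a product of NK and CD8+ T cells, and among mouse leukocytes it is known as a marker of cDC1. It had 111, 99 and 137 counts in CD36+ NK replicates 1 to 3 and 22, 28 and 10 in CD36- NK replicates 1 to 3, or 9.88, 7.28 and 11.4 CPM against 1.69, 2.48 and 0.977 CPM. The lowest CD36+ NK library was thus well above the highest CD36- NK library. The log2 fold change was 2.46 (standard error 0.348, edgeR adjusted p = 0.00763), and it lay between 2.18 and 2.80 with any 1 library left out. An antisense gene, Gm57030, overlaps Xcr1 and had 10 to 27 counts in each library, with a log2 fold change of 0.087.

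Clec9a (ENSMUSG00000046080, chromosome 6, from 129385825 to 129401726) encodes DNGR-1, a C-type lectin by which cDC1 sense actin filaments of dead cells. Its counts were 176, 200 and 223 in CD36+ NK and 39, 76 and 23 in CD36- NK. This made 15.7, 14.7 and 18.5 CPM against 2.998, 6.72 and 2.25 CPM, with CD36- NK replicate 2 the highest of its group but still below every CD36+ NK library. It had a log2 fold change of 2.03 and passed (standard error 0.380, edgeR adjusted p = 0.0204). Clec9a lost its call, with adjusted p from 0.0559 to 0.0839, when replicate 2 or 3 of CD36+ NK or replicate 1 or 3 of CD36- NK was left out, although the log2 fold change stayed between 1.74 and 2.62 in the fits without 1 library. On the same strand, the table places Clec1b and Gm43914 within or across the interval of Clec9a, and reads in shared parts could have been counted to any of them. Clec1b, which encodes the receptor CLEC-2 of platelets and Kupffer cells, had 125, 212 and 356 counts in CD36+ NK and 15, 60 and 15 in CD36- NK, with a log2 fold change of 2.83 (edgeR adjusted p = 0.0334).

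Itgae (ENSMUSG00000005947, chromosome 11, from 72981409 to 73038272) encodes the integrin chain CD103, carried by cDC1 of tissues and also by T cells that lodge in epithelia. It had 90, 63 and 81 counts in CD36+ NK and 19, 35 and 23 in CD36- NK, or 8.01, 4.64 and 6.73 CPM against 1.46, 3.10 and 2.25 CPM. The groups did not overlap, and CD36+ NK replicate 1 was the highest library. CD36+ NK exceeded CD36- NK by 1.51 on the log2 scale (standard error 0.341, edgeR adjusted p = 0.0362). T cell genes were also high in that library: the 8 genes of the T cell list summed to 343 CPM in CD36+ NK replicate 1 and to 37.7 to 147 CPM in the other 5 libraries, and Cd3e was at 27.0 CPM there and at 0.0831 to 1.06 CPM elsewhere. Without that library, the log2 fold change of Itgae was 1.32 with an edgeR adjusted p of 0.0696, and of the 6 fits that left out 1 library only the one without CD36- NK replicate 2 called the gene. Haspin lies on the other strand within Itgae, and its log2 fold change was -0.69.

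Batf3 (ENSMUSG00000026630, chromosome 1, from 190830044 to 190841142) encodes a transcription factor needed for the development of cDC1 and expressed in activated T cells too. It was at 7.92, 7.87 and 8.31 CPM in CD36+ NK and at 5.61, 8.67 and 4.20 CPM in CD36- NK. CD36- NK replicate 2 was the highest of all 6 libraries, so the groups overlapped. On the log2 scale the difference was 0.38, with a 95% confidence interval from -0.25 to 1.02 (edgeR adjusted p = 0.432).

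Ly75 (ENSMUSG00000026980, chromosome 2, from 60122447 to 60213647) encodes DEC-205, an endocytic receptor of cDC1 and mature dendritic cells that B cells carry at a lower level. It was the 1 gene of the 10 that was lower in every CD36+ NK library, as 15.7% of all tested genes were. It had 43.6, 34.4 and 33.8 CPM in CD36+ NK and 50.8, 56.8 and 57.7 CPM in CD36- NK. The log2 fold change was -0.56 (standard error 0.128, edgeR adjusted p = 0.0368), a fold of 1.48, which passed the p threshold but not the fold threshold. The adjusted p of Ly75 was above 0.05 in 5 of the 6 fits without 1 library (0.0829 to 0.126 by edgeR), all but the one without CD36+ NK replicate 1, and the log2 fold change ran from -0.70 to -0.50. All 8 genes of the B cell list had fold changes of the opposite sign, from 0.16 to 1.035 on the log2 scale. The 10 genes of the NK cell list fell, by a median of 2.49 on the log2 scale.

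**Figure D2:**
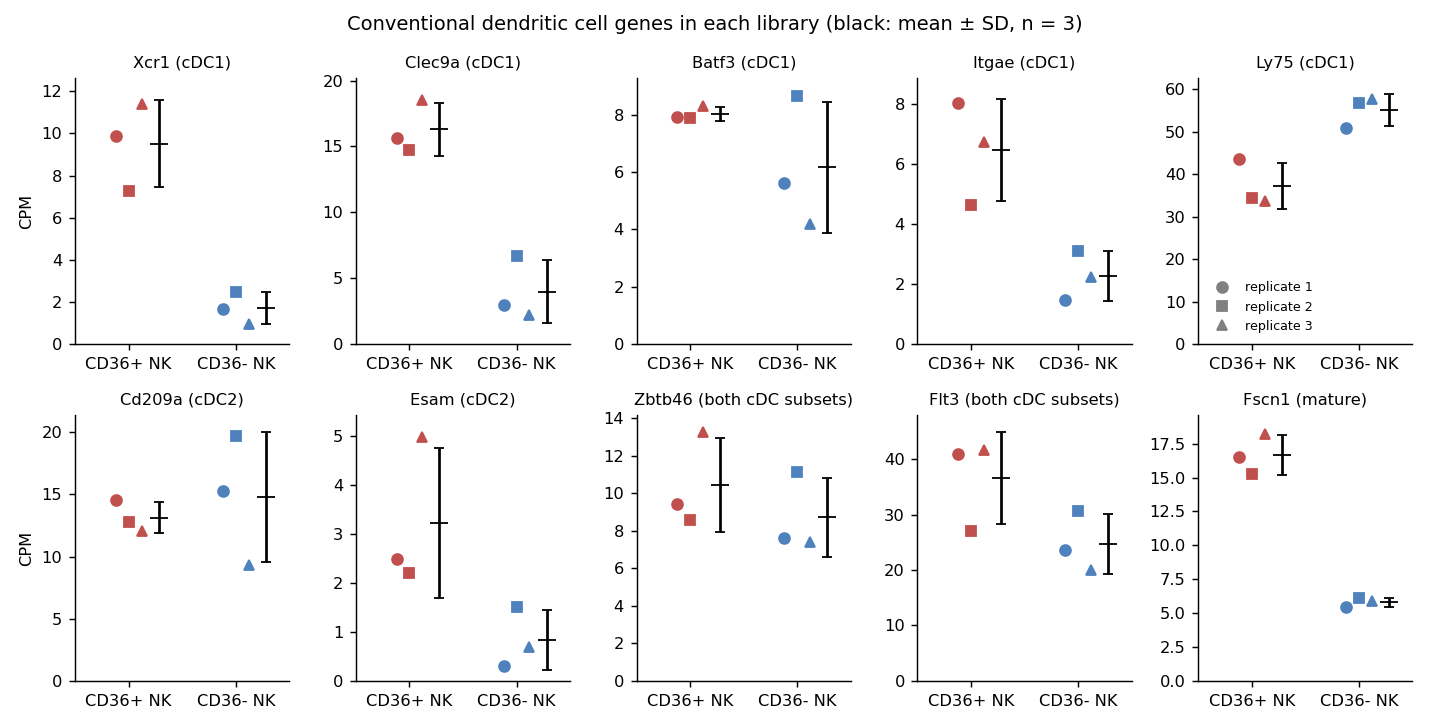
CPM (TMM-normalised count, axes from 0) of each of the 10 cDC genes in the 3 CD36+ NK (red) and 3 CD36- NK (blue) libraries, with the mean ± SD in black and the marker shape giving the replicate. Xcr1, Clec9a, Itgae, Esam and Fscn1 lie higher in every CD36+ NK library, Ly75 lies lower, and Batf3, Cd209a, Zbtb46 and Flt3 overlap, with CD36- NK replicate 2 at the top of its group in 9 of the 10 genes.

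Neither of the 2 cDC2 genes passed the thresholds. Cd209a (ENSMUSG00000031494, chromosome 8, from 3793397 to 3798984), a mouse relative of the human lectin DC-SIGN, marks cDC2 and dendritic cells that arise from monocytes. It was at 14.5, 12.8 and 12.1 CPM in CD36+ NK and at 15.3, 19.7 and 9.28 CPM in CD36- NK. The CD36+ NK libraries lay within the range of the CD36- NK libraries. The log2 fold change was -0.17, with a 95% confidence interval from -0.79 to 0.45 (edgeR adjusted p = 0.741), and it was 0.091 without CD36- NK replicate 2.

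Esam (ENSMUSG00000001946, chromosome 9, from 37439374 to 37449615) encodes an adhesion molecule of endothelial cells and platelets that also marks a Notch2-dependent part of cDC2, mainly described in the spleen. It was the lowest counted of the 10 genes, with 28, 30 and 60 counts in CD36+ NK and 4, 17 and 7 in CD36- NK. Each CD36+ NK library was above each CD36- NK library, at 2.49, 2.21 and 4.99 CPM against 0.308, 1.503 and 0.684 CPM. The log2 fold change was 1.96 (standard error 0.580), and it did not pass, with an edgeR adjusted p of 0.0759. The adjusted p was 0.0249 with DESeq2, 0.0157 with edgeR's exact test and 0.0357 without CD36- NK replicate 2. Esam reached the filter on low counts through the CD36+ NK libraries, since only 1 CD36- NK library was above the minimum, so a difference in this direction was favoured by the filter. The list of 9 liver sinusoidal endothelial genes summed to 226 to 312 CPM in CD36+ NK against 156 to 172 CPM in CD36- NK. Most of this sum was Pecam1, which leukocytes also express. Of the list, 5 genes were tested. Stab1, a scavenger receptor gene that some macrophages share, passed the thresholds (log2 fold change 3.02, edgeR adjusted p = 0.0142). Stab2, a related scavenger receptor gene, was at 32.8 to 89.0 CPM in CD36+ NK against 2.54 to 17.2 CPM in CD36- NK, without overlap, but did not pass (edgeR adjusted p = 0.0586). Cdh5, which encodes VE-cadherin, was at 1.58 to 5.59 against 0.488 to 0.973 CPM and did not pass either, and like Esam it reached the filter through CD36+ NK. Kdr, which encodes a receptor for VEGF, was at 0.356 to 1.16 against 0.308 to 1.15 CPM, and its groups overlapped. Clec4g, Lyve1, Tek and Ptprb were below 1 CPM in every library. The part of endothelial cells in the values of Esam was not tested.

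Of the genes shared by both cDC subsets, neither passed the thresholds. Flt3 (ENSMUSG00000042817, chromosome 5, from 147267551 to 147337299) encodes the receptor for FLT3L, on which cDC development depends, and also marks early blood progenitors. It was at 40.9, 27.1 and 41.7 CPM in CD36+ NK and at 23.7, 30.6 and 19.9 CPM in CD36- NK. CD36- NK replicate 2 was above CD36+ NK replicate 2, and the log2 fold change was 0.56, with a 95% confidence interval from 0.04 to 1.08 (edgeR adjusted p = 0.159). Plasmacytoid dendritic cells express Flt3 as well, and 8 of their marker genes summed to 433 to 479 CPM in CD36+ NK against 291 to 355 CPM in CD36- NK. Most of that sum was Ly6d, which B cells share, at 249 to 293 against 148 to 212 CPM. None of the 8 was called higher, 4 overlapped between the groups, Siglech among them (log2 fold change 0.24), and Cox6a2 was called lower (log2 fold change -1.52, edgeR adjusted p = 0.0499). Over all tested genes 2.98% were called in each direction, and 32.8% did not overlap. Cox6a2 had 8, 11 and 4 counts in CD36+ NK and 24, 17 and 21 in CD36- NK and passed the filter through CD36- NK alone, which favoured this direction. Zbtb46 (ENSMUSG00000027583, chromosome 2, from 181029555 to 181101219) encodes a transcription factor that, among immune cells, sets cDCs and their committed precursors apart from macrophages and monocytes. It was at 9.44, 8.61 and 13.3 CPM in CD36+ NK and at 7.61, 11.1 and 7.42 CPM in CD36- NK, and the groups overlapped. Its log2 fold change was 0.26, with a 95% confidence interval from -0.32 to 0.84 (edgeR adjusted p = 0.569). The interval of Zbtb46 leaves out a 2-fold difference, and that of Flt3 just includes it.

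Fscn1 (ENSMUSG00000029581, chromosome 5, from 142946098 to 142958940) encodes fascin, a protein that bundles actin filaments and is high in mature dendritic cells, where it serves the dendrites and migration. Its counts were 186, 207 and 219 in CD36+ NK and 71, 69 and 60 in CD36- NK, or 16.6, 15.2 and 18.2 CPM against 5.46, 6.10 and 5.86 CPM. Both groups were tight, and CD36- NK replicate 2 did not stand apart here. Fscn1 had the smallest p-value of the 10 genes. The log2 fold change was 1.52 (standard error 0.146, edgeR adjusted p = 0.00201), and it ran from 1.45 to 1.58 with any 1 library left out.

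**Figure D3:**
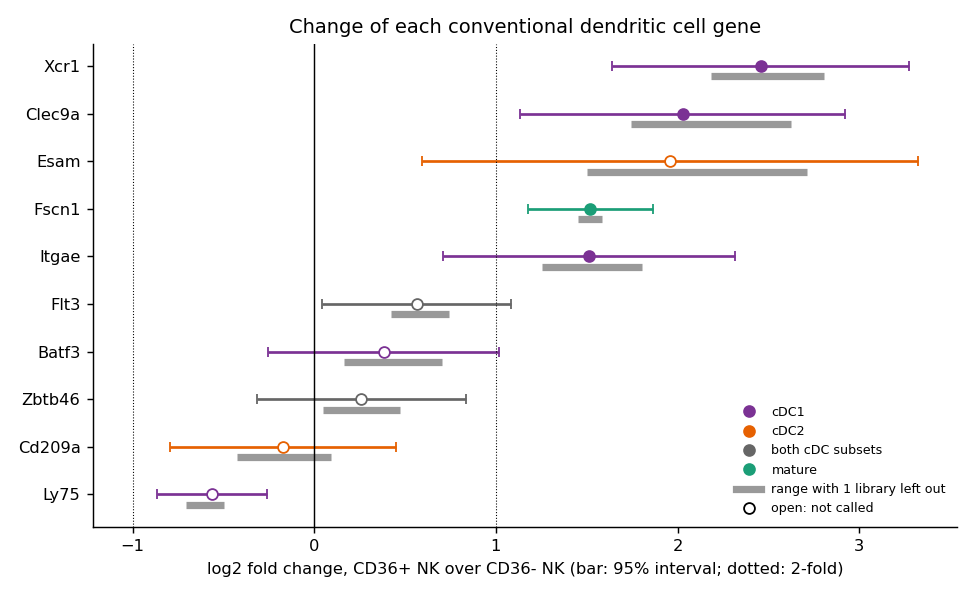
Log2 fold change of each cDC gene, CD36+ NK over CD36- NK, with its 95% confidence interval, coloured by class, filled where the gene was called, and with the range over the 6 fits without 1 library in grey. Xcr1, Clec9a, Fscn1 and Itgae are filled, Esam is open at 1.96 with a wide interval, and Ly75 is the 1 gene whose interval lies below 0.

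Taken as a list, 5 of the 10 genes were above in every CD36+ NK library, against 17.0% of all tested genes, and 6 did not overlap in either direction, against 32.8%. The median log2 fold change of the 10 genes was 1.037, against 0.012 over all tested genes. These values rest in part on Esam, whose direction the filter favoured. Without it, of 9 genes, 4 were above and 1 below in every CD36+ NK library, and the median was 0.56. Within CD36- NK, replicate 2 was the highest library for 9 of the 10 genes, and it also had the highest macrophage and Kupffer cell sum of that group, 1438 CPM against 562 in replicate 1 and 377 in replicate 3. It was likewise the highest of that group for the monocyte, plasmacytoid dendritic cell, endothelial and liver-resident NK cell lists. For the B cell, T cell, neutrophil and NK cell lists it was not. Within CD36+ NK, replicate 3 was the highest library for 7 of the 10 genes and had the highest macrophage and Kupffer cell sum, 5931 CPM against 2363 in replicate 1 and 3671 in replicate 2. The endothelial list was also highest in replicate 3, and the monocyte, plasmacytoid dendritic cell and NK cell lists were lowest there. Replicate 2 of CD36+ NK was the lowest library for 8 of the 10 genes and did not have the lowest macrophage sum. Its B cell, T cell, neutrophil and liver-resident NK cell sums were the lowest of that group. Its plasmacytoid dendritic cell and NK cell sums were the highest. The part of any of these cells in the order of the libraries was not tested.

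Levels of different genes were compared as FPKM, the authors' values per length of gene and depth of library. In CD36- NK the order began with Ly75 at 7.61 ± 0.525 FPKM (SD, n = 3), Cd209a at 5.35 ± 1.98 and Flt3 at 4.06 ± 0.961, and each of these overlapped the next. Batf3 followed at 1.96 ± 0.760 and lay apart from both its neighbours. Below it were Fscn1 at 1.06 ± 0.0698, Clec9a at 1.005 ± 0.620 and Zbtb46 at 0.833 ± 0.214, overlapping in that order. Zbtb46 did not overlap the next gene, Itgae. The order ended with Itgae at 0.490 ± 0.183, Xcr1 at 0.392 ± 0.177 and Esam at 0.248 ± 0.186, which overlapped likewise. In CD36+ NK the order was Flt3 at 5.83 ± 1.31 FPKM, Ly75 at 5.02 ± 0.875, Cd209a at 4.62 ± 0.571 and Clec9a at 3.96 ± 0.401, each overlapping the next. Fscn1 at 2.96 ± 0.224 lay apart from both its neighbours. Batf3 at 2.48 ± 0.0413, Xcr1 at 2.10 ± 0.435, Itgae at 1.36 ± 0.377, Zbtb46 at 0.964 ± 0.207 and Esam at 0.923 ± 0.412 ended the order, each overlapping the next. Xcr1 stood below Zbtb46 in every CD36- NK library and above it in every CD36+ NK library.

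The cDC1 and cDC2 genes were also set against Flt3 within each library, a measure that depth and scaling do not touch. Per 100 Flt3 counts there were 24.1, 26.9 and 27.3 Xcr1 counts in CD36+ NK and 7.14, 8.09 and 4.90 in CD36- NK. For Clec9a these values were 38.3, 54.3 and 44.4 in CD36+ NK and 12.7, 21.97 and 11.3 in CD36- NK. Relative to Flt3, Xcr1 and Clec9a were therefore higher in every CD36+ NK library. Ly75, also a receptor of the cDC1 class, was lower in each, at 106.5, 127.2 and 80.9 in CD36+ NK against 214.6, 185.5 and 289.7 in CD36- NK. Cd209a had 35.4, 47.3 and 28.9 counts per 100 of Flt3 in CD36+ NK and 64.6, 64.5 and 46.6 in CD36- NK, so its groups overlapped slightly, with the mean lower in CD36+ NK. Zbtb46, the other gene of both subsets, had a mean of 28.9 ± 5.08 (SD, n = 3) in CD36+ NK against 35.3 ± 2.74 in CD36- NK, and was lower in every CD36+ NK library. Batf3 had a mean of 22.8 ± 5.46 against 24.4 ± 3.67, and its groups overlapped. These ratios are given without a test, since an exact permutation test of 3 libraries against 3 cannot go below a p of 0.1.

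**Figure D4:**
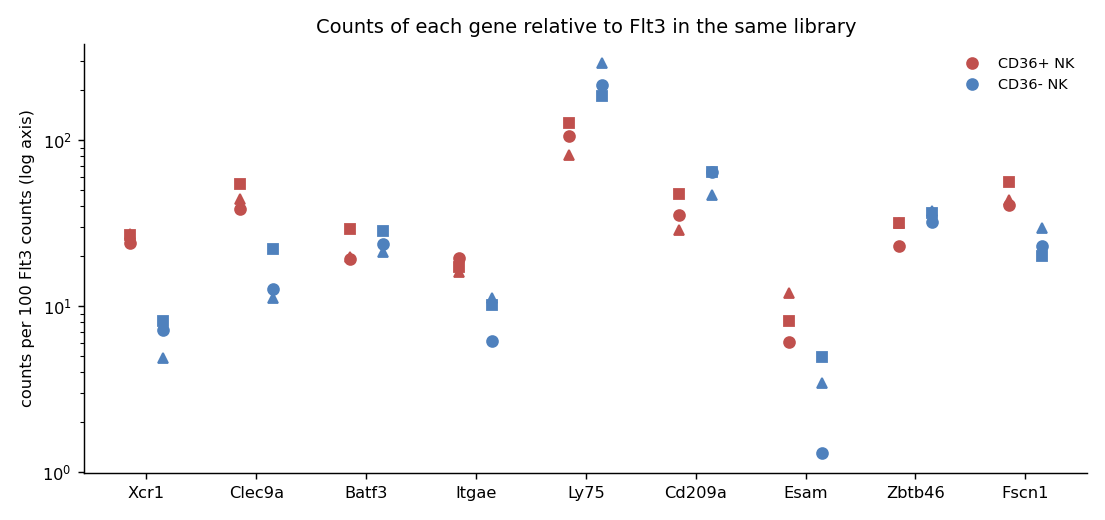
Counts of each cDC gene per 100 Flt3 counts of the same library (log axis), red for CD36+ NK and blue for CD36- NK, with the marker shape giving the replicate. Xcr1, Clec9a, Itgae, Esam and Fscn1 are higher relative to Flt3 in every CD36+ NK library, Ly75 and Zbtb46 are lower, and Batf3 and Cd209a overlap.

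A wider list of 55 other genes tied to cDCs was read from the same fit. It was chosen with earlier results of these data known, so its counts and medians are a description only. Of the 54 tested genes, 8 were higher and 3 lower by the thresholds, against 2.98% of all tested genes in each direction, and 43 did not pass. The median log2 fold change was 0.49, against 0.012 over all tested genes. Without Septin3, Mgl2, Ccl22 and Il12b, which were below the count minimum in at least 1 CD36- NK library but in no CD36+ NK library, 7 of 50 genes were higher and 3 lower, with a median of 0.46. Without 1 library the 8 became 3 or 4 (replicate 2 or 3 of CD36+ NK) and 2 or 3 (replicate 1 or 3 of CD36- NK), and the 3 lower genes became 1, 1, 2 and 0 in the same order.

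Of the 16 further cDC1 genes, 4 rose and none fell, against 2.98% of all tested genes in each direction. Snx22, a sorting nexin gene known from cDC1 expression profiles, was at 9.52, 5.45 and 7.15 CPM in CD36+ NK and at 2.08, 1.86 and 1.56 CPM in CD36- NK (log2 fold change 2.00, edgeR adjusted p = 0.00734). Rab7b, which encodes a small GTPase of endosomal traffic, had a log2 fold change of 1.93 (edgeR adjusted p = 0.0209), and Tlr3, which encodes the receptor for double-stranded RNA in endosomes, one of 1.24 (edgeR adjusted p = 0.0283). Cadm1, which encodes an adhesion molecule used to sort cDC1, had a log2 fold change of 2.28 and an edgeR adjusted p of 0.049997, next to the threshold. It was at 22.6, 30.4 and 63.2 CPM in CD36+ NK and at 4.84, 14.9 and 4.20 CPM in CD36- NK, with replicate 3 of CD36+ NK far above the rest. Of the pair of genes with the highest mean CPM over all 6 libraries, a rank that need not hold within a group, Wdfy4, needed for cross-presentation by cDC1 and also expressed in B cells, was higher in every CD36+ NK library at a log2 fold change of 0.88 (edgeR adjusted p = 0.00315), under the fold threshold. Irf8, which encodes a transcription factor of cDC1 that B cells and monocytes share, had a log2 fold change of -0.42 (edgeR adjusted p = 0.503).

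Of the 10 further cDC2 genes, 1 rose and 1 fell, against the same 2.98% each way over all tested genes. Sirpa, which encodes an inhibitory receptor that cDC2 share with macrophages and monocytes, was at 411, 578 and 794 CPM in CD36+ NK and at 61.5, 137 and 110 CPM in CD36- NK (log2 fold change 2.53, edgeR adjusted p = 0.00697). Itgam, which encodes CD11b and is expressed by NK cells and myeloid cells as well, had a log2 fold change of -1.08 (edgeR adjusted p = 0.0336). None of the 4 lectin genes of the class passed. Clec10a and Mgl2 overlapped between the groups (log2 fold changes -0.59 and 0.32, edgeR adjusted p = 0.180 and 0.731), and Clec4a4 and Clec12a were higher in every CD36+ NK library (log2 fold changes 1.011 and 1.016, edgeR adjusted p = 0.106 and 0.0698). Highest in the mean over all 6 libraries were Klf4 and Notch2, although the mean of Sirpa was above both in CD36+ NK and that of Itgam in CD36- NK. Klf4 and Notch2 encode a transcription factor and a receptor that cDC2 depend on, with log2 fold changes of 0.58 and 0.51, of which only that of Notch2 had an edgeR adjusted p under 0.05 (0.0206).

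Of the 9 further genes of both subsets, 2 fell and none rose, again against 2.98% each way. Itgax encodes CD11c, which dendritic cells share with NK cells and some macrophages, and Kit encodes the receptor for stem cell factor. Itgax was at 197, 250 and 255 CPM in CD36+ NK and at 415, 513 and 612 CPM in CD36- NK (log2 fold change -1.13, edgeR adjusted p = 0.00969), and Kit had a log2 fold change of -1.15 (edgeR adjusted p = 0.0191). Ciita, which encodes the activator of MHC class II genes in dendritic cells and B cells, had a log2 fold change of 0.33 (edgeR adjusted p = 0.0684).

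Of the 20 genes of mature dendritic cells, 19 were tested, and 3 rose and none fell, against 2.98% each way. Ccl22, which encodes a chemokine for regulatory T cells, was low, at 4.98, 3.16 and 2.41 CPM in CD36+ NK and at 0.615, 1.15 and 0.488 CPM in CD36- NK (log2 fold change 2.21, edgeR adjusted p = 0.0233). Only 1 CD36- NK library was above the count minimum for Ccl22, so the filter favoured this direction, as for Esam, and without Ccl22 2 genes of the class rose. Cd86, which encodes a costimulatory ligand also made by macrophages and B cells, had a log2 fold change of 1.60 (edgeR adjusted p = 0.0237), and Cacnb3, a calcium channel subunit gene of mature dendritic cell profiles, one of 1.33 (edgeR adjusted p = 0.0184). Ccr7, the chemokine receptor gene of migrating dendritic cells that B and T cells also express, was at 220, 137 and 168 CPM in CD36+ NK and at 143, 66.1 and 162 CPM in CD36- NK, and the groups overlapped (log2 fold change 0.50, edgeR adjusted p = 0.396). Ccl17 had too few counts to be tested. Tmem123 and Birc3, highest in the mean over all 6 libraries (with Cd83 above Birc3 in CD36+ NK), had log2 fold changes of 0.41 and 0.16 (edgeR adjusted p = 0.0483 and 0.309).

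**Figure D5:**
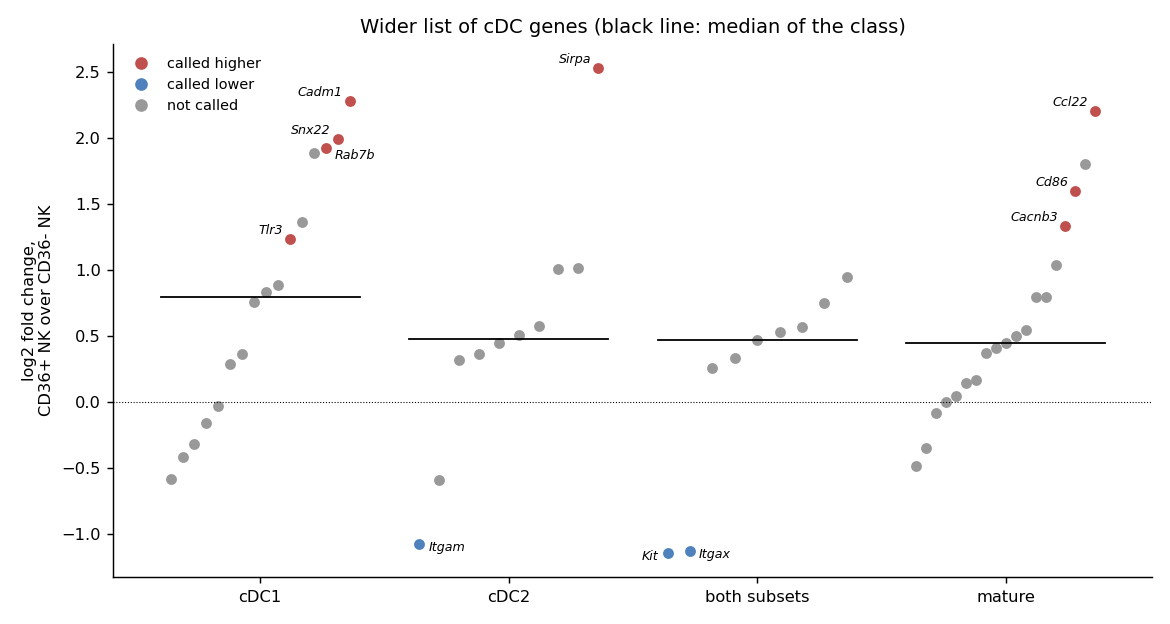
Log2 fold change, CD36+ NK over CD36- NK, of the 54 tested genes of the wider cDC list by class, each class sorted by value, with called genes named in red (higher) or blue (lower) and the class median as a black line. The medians are 0.79 for cDC1, 0.48 for cDC2, 0.47 for genes of both subsets and 0.44 for mature genes.

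The tested genes most like the called members over the 6 libraries, by Pearson's r of log2 CPM, were Pecr, Shroom3 and Gm8221 for Xcr1, Btk, Wnt6 and Ypel2 for Clec9a, Pvr, Rab7b and Myo18b for Itgae, and Amigo2, Mcts2 and Atp6v0a1 for Fscn1. Their r ran from 0.983 for Myo18b to 0.998 for Btk. Over 6 libraries in 2 groups such values describe the difference between the groups more than a shared pattern within them. Rab7b, a gene of the wider cDC1 list, was the only one of these 12 that belongs to a cDC list used here.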

How the data were processed

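Sequencing covered 3 samples of each group. Seqtk was used by the authors to filter reads, HISAT2 2.0.4 for mapping and StringTie to obtain the deposited raw counts of each gene. Deposited FPKM values equal these counts over gene length and library total, since 100.0% of 7439 genes with over 200 counts in every library gave 1 length to within 1%. The submitters' processing notes name a rat build, mRatBN7.2, while the table holds mouse Ensembl genes. Of 51884 genes shared with GENCODE M21 (GRCm38), 1396 had identical coordinates, and genes are therefore placed as in the table, and GRCm38.p6 only for RefSeq promoters. The broken lines of 2 genes were rejoined. Samples were grouped by title, and columns were matched to samples by library name, where the sign of CD36 is written differently. Replicate 1 of each group has a library name of another form than the rest, and this form was 1 of the blocks tried. Each library titled CD36+ had more Cd36 than each titled CD36-.

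The counts entered edgeR 4.0.16 (R 4.3.3). Genes passing filterByExpr with a minimum count of 10 (14761) were scaled by TMM and tested by quasi-likelihood without a block, with Benjamini-Hochberg adjustment over all of them. Calls needed an adjusted p below 0.05 together with a fold above 2, as in the study. To obtain a standard error, the size of the log2 fold change was divided by the square root of F, and intervals use the test's degrees of freedom. No strand setting of the counting is given in the sources used here, so overlapping genes cannot be told apart with certainty.

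The 10 genes, the wider list and the marker lists were chosen with earlier results of these data known, so lists are described by counts and medians with no test. Named are all 10 members, the called and the 2 genes of highest mean CPM over all libraries in each wider class, Cd36 and Klrb1c, and the 3 tested genes most like a member. Clec10a, Mgl2, Clec4a4, Clec12a, Septin3, Il12b, Cd83, Ccr7, Ccl17, Clec1b, Gm43914, Gm57030, Haspin and single markers of other cells were named after their values were seen. The results were also computed with DESeq2 1.42.0, the exact test of edgeR, other scalings, filters and fold thresholds, blocks, and each library left out. The script was tested on simulated counts with known changes.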

Additional observations from a re-analysis of the deposited data

How the results depend on the processing

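Xcr1 and Fscn1 were called under all 15 alternatives run for single genes, with adjusted p up to 0.0434 and 0.0227. Clec9a lost its call under 5 and Itgae under 8, the replicate block among them in both. Esam gained one under 3. The edgeR adjusted p of Ly75 also rose above 0.05 with the replicate block (0.0812), with the pairs by library number described below (0.0790) and without a filter (0.0588). The sign turned for 1 gene under 1 alternative: Cd209a had a log2 fold change of 0.091 without CD36- NK replicate 2 and of -0.42 without CD36- NK replicate 3.

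With 1 library left out, the 4 cDC genes called higher became 2 to 5 and the 0 called lower stayed at 0, the wider list gave 2 to 11 higher and 0 to 3 lower, and all genes gave 417 to 1160 calls against 880. The replicate number as a block gave 2 cDC genes and 4 wider genes higher, and 560 calls in all. Same-numbered libraries deviated together with correlations of 0.310, 0.0515 and -0.0837 across genes, so the numbers do not show pairs. Pairs by the number in the library name, chosen after seeing the data, gave 5 wider genes higher and 1 lower, and 413 calls in all. In these pairs CD36+ NK replicate 3 and CD36- NK replicate 1, whose library numbers differ, were put together because neither had a match. Without a fold threshold Ly75 made 1 cDC gene lower, the wider list had 16 higher, and 1552 genes were called. The edgeR exact test gave 13 wider genes higher. Esam could not be fitted with at least 10 counts in every library. Fewer libraries leave fewer degrees of freedom. Calls over all genes were 1122 without CD36+ NK replicate 1 and 1160 without CD36- NK replicate 2. They were 417 to 451 without any 1 of the other libraries. The causes of these shifts were not tested. Depth limits Esam most, with 4 counts in its lowest library.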
